A study of Mus musculus with 8 samples.

Results

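The genes described here encode the machinery of mitosis: the cyclins and the kinase that start it, the checkpoint that guards it, the kinetochore, spindle and motor proteins that move chromosomes, and the proteins that split the cell. They were taken from a list of 38 gene symbols, and every probe set whose annotation gave one of these symbols alone was used. Of the 38 genes, 37 had such a probe set, with 80 probe sets among them, out of 18193 genes and 34945 probe sets with 1 symbol in all. Ccnb1 was not analysed here. For 25 of the 37 genes there was more than 1 probe set, and the one with the highest mean over all arrays stands for the gene unless stated otherwise.

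The samples came from 4T1.2, a mouse mammary carcinoma line that spreads to bone after transplantation, grown in Balb/c mice, and each of the 8 was put on its own array. A group of 4 arrays held tumour epithelial cells isolated from the primary tumour in the mammary gland, and the other group of 4 held spine metastases, with 1 primary tumour and 1 metastasis from each of 4 mice. No treatment, age or time point was given in the sources used here, nor was the method by which epithelial cells were isolated. 4T1.2 is a single tumour line, so the mice replicate the host and the growth of the tumour, not the tumour's genotype. The comparison asked how tumour cells growing in bone differ from their matched primary tumour, and values are log2 signals, so that a difference of 1 is a 2-fold difference in signal.

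A cell enters mitosis when Cdk1, bound to A- and B-type cyclins, is switched on. The spindle checkpoint then holds the cell until every chromosome is attached, after which the anaphase-promoting complex, a ubiquitin ligase, marks cyclins and securin for destruction so that the chromosomes part and the cell divides. Transcripts of these genes rise together in late G2 and mitosis and are low in resting cells, so their level in a tissue is widely used as a sign of how many cells are dividing. In bulk samples such as these, fewer dividing cells and less transcript in each dividing cell cannot be told apart.

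Promoters of such genes often hold a cell cycle genes homology region (CHR), the element through which the DREAM complex silences them in resting cells, together with CCAAT boxes. The CHR was searched as TTTGAA or TTCGAA and the CCAAT box as CCAAT, on both strands and with overlapping matches allowed, from 250 bases before to 50 bases after each start in the RefSeq promoter table of build GRCm38.p6. Of the 38 genes, 32 were in that table. A CHR was found in 25 of them, or 78.1%, against 21.7% of all 27025 genes in the table, a CCAAT box in 71.9% against 41.1%, and both in 65.6% against 8.6%. A match describes letters, and binding was not measured. The stretches below belong to the 6 genes in the table that fell in metastases, and are shown because all 6 hold a CHR; capitals mark CHR and CCAAT matches. For Cdk1 (chr10:69352913-69353012, minus strand) and Prc1 (chr7:80294376-80294475, plus strand) these are the 100 bases before a start. For Bub1 (chr2:127831830-127831855, minus), Aurka (chr2:172370523-172370548, minus), Plk1 (chr7:122159455-122159480, plus) and Anln (chr9:22389163-22389188, minus) the CHR lies after the start, and it is shown with 10 bases on each side.
Cdk1: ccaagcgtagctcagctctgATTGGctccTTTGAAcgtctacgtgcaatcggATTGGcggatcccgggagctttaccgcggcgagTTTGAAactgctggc
Prc1: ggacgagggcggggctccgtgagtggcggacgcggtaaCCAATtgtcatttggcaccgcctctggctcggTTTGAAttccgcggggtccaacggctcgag
Bub1: gcgcggggaaTTCGAAtcgccggcgg
Aurka: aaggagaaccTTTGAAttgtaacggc
Plk1: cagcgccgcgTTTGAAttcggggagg
Anln: aaaTTCAAAtTTTGAAcggccgtggt
The nearest CHR begins 15 bases before the start of Cdk1 and 30 bases before the start used for Prc1. In Plk1 the CHR begins 30 bases after the start, with a CCAAT box 14 bases before the start. Anln holds 2 CHR matches, on opposite strands, and no CCAAT box in this window. Among the genes that did not pass the test, 19 of 25 in the table also held a CHR, so the element was common on both sides of the threshold.

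The metastasis arrays differed widely in keratin signal, and the part of this in the results was not tested. Krt8, a keratin of simple epithelia, had log2 signals of 13.32, 13.07, 13.19 and 13.22 in the primary tumours of mice 1 to 4 and of 7.34, 12.39, 9.80 and 12.97 in their metastases. Its partner Krt18 read 11.37, 11.54, 11.95 and 11.53 against 6.05, 10.95, 8.49 and 11.86. Metastasis arrays 1 and 3 were thus far below the primary arrays in both keratins, whereas arrays 2 and 4 were close to them. Epcam, an epithelial adhesion molecule, differed little, with 8.34 to 9.35 on metastasis arrays and 8.65 to 9.26 on primary arrays. Cdh1, the adhesion molecule E-cadherin, did not follow the keratins: it read 6.32, 7.02, 5.67 and 6.84 on primary arrays and 6.998, 7.89, 6.96 and 5.74 on metastasis arrays, with the lowest metastasis value on array 4. Bone marrow transcripts came up in the same samples: Vpreb1, the surrogate light chain of B cell precursors, read 13.95, 10.67, 7.0 and 12.40 on metastasis arrays 1 to 4, against 4.09 to 4.68 on primary arrays. Results are therefore given with all arrays and without array 1, which had the lowest keratins and the highest Vpreb1. Array 1 was also the highest metastasis array for 32 of the 37 mitotic genes, so leaving it out lowers the folds of those genes by construction. For many genes the fold without array 3 is given as well.

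Mitotic genes tended to be lower in bone metastases, but few passed the test with all 8 arrays. Of 37 genes, 7 (18.9%) fell: Anln, Bub1, Cdk1, Kif20a, Prc1, Aurka and Plk1. By limma with Benjamini-Hochberg adjustment, 12.1% of all 18193 genes were called lower, so the mitotic share lay less than 2-fold above the background. Of the 37, 35 lay at or above the median signal of the arrays, as did 12190 of all genes. In a fit of these brighter genes alone, 8 mitotic genes were called lower, against 19.3% of all the brighter genes. With all genes tested, none of the mitotic genes rose (0 of 37, against 9.72% of all genes called higher). At an unadjusted p under 0.05 there were 15 lower and 1 higher. The fold was below 0 for 28 of the 37, or 75.7%, against 41.8% of all genes, and its median was -0.80, against 0.09 over all genes. Scaling the arrays to their 75th percentile moves the median of all genes by 0.20 to 0.30, and that of the mitotic genes to -0.60. Without array 1, 20 of 37 genes (54.1%) were called lower, against 14.8% of all genes, among them all 7 named above. Their median was then -0.91, against 0.12 over all genes. Without metastasis array 3 the median moved the other way, to -0.46, against 0.078 over all genes, and with the mean of each gene's probe sets it was -0.36, against 0.083. Of the 13 genes called lower without array 1 and not with all arrays, 0 were called without array 3 by limma (3 at an unadjusted p under 0.05), with folds of -1.40 to -0.026. Without primary array 1, 2, 3 or 4 the count was 3, 7, 3 and 3 (8.81%, 8.22%, 7.23% and 6.88% of all genes), and without metastasis array 2, 3 or 4 it was 7, 4 and 4 (14.9%, 8.5% and 10.6%). With both keratin-poor arrays 1 and 3 left out, a choice made after seeing the data, 16 genes were called lower, against 8.25% of all genes. Quantile normalization left 4 called lower (Anln, Bub1, Kif20a and Plk1), against 10.2% of all genes. With the mouse as a block 6 genes were called lower, against 10.4% of all genes. Cdk1 (limma adjusted p = 0.0548) and Aurka (0.0747) then missed the threshold and Aurkb (0.0458) passed it.

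**Figure D1:**
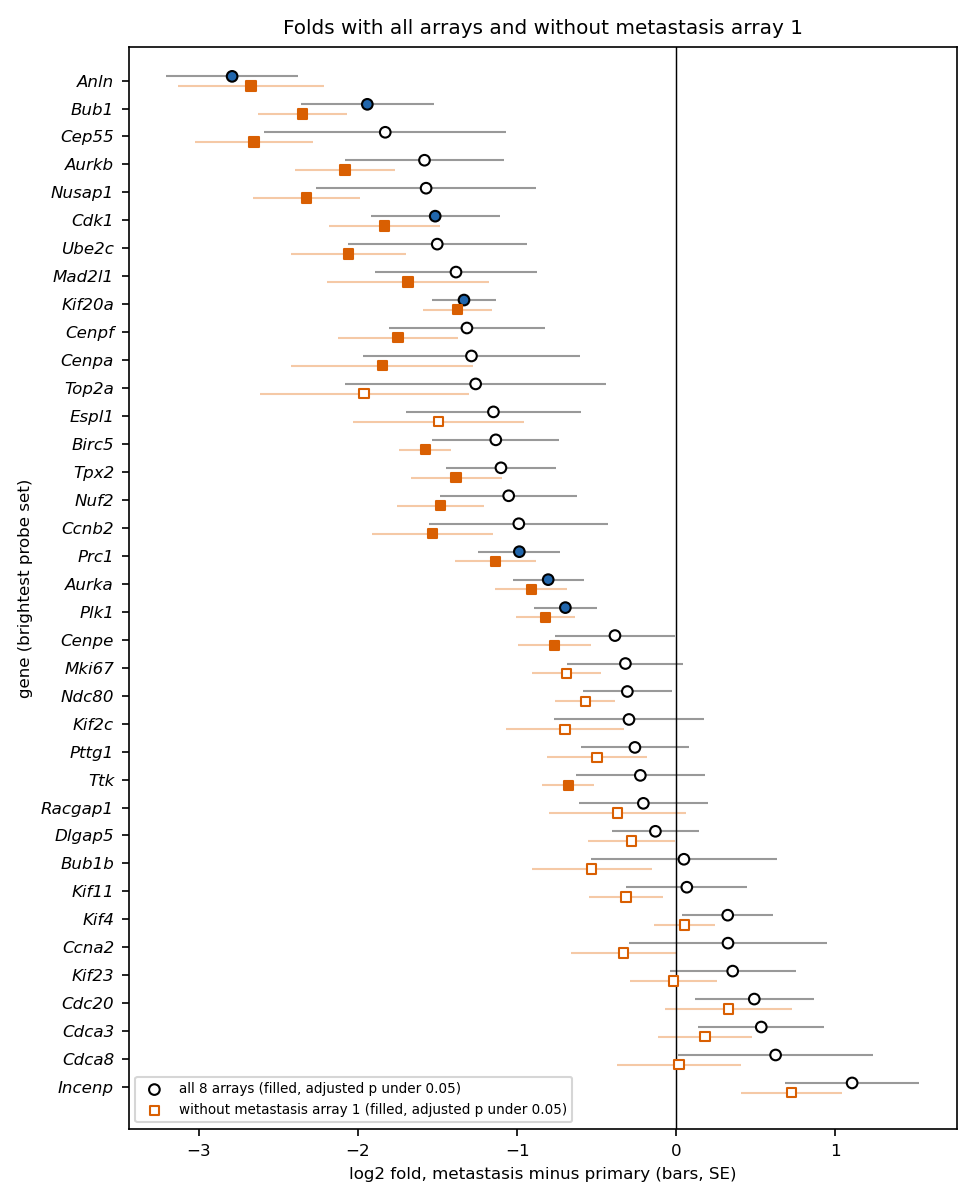
Log2 fold of each of the 37 genes, metastasis minus primary, with its SE, from all 8 arrays (circles) and without metastasis array 1 (squares); filled symbols passed the adjusted p threshold of 0.05. With all arrays 7 circles are filled, without array 1 there are 20 filled squares, and most squares lie to the left of their circles.

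**Figure D2:**
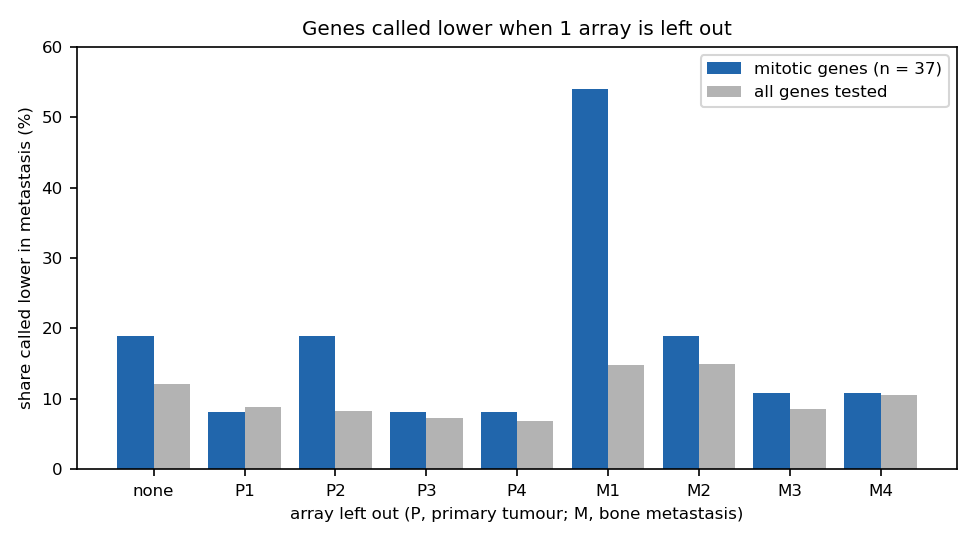
Share of genes called lower in metastasis, in percent, with no array left out and with each array left out in turn, for the 37 mitotic genes and for all genes tested. Leaving out metastasis array 1 gives the tallest bar, 54.1% of mitotic genes against 14.8% of all genes.

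Mitotic genes varied more among metastases than among primary tumours. The SD over the 4 metastasis arrays had a median of 0.91 among mitotic genes, against 0.28 over the 4 primary arrays; over all genes these medians were 0.41 and 0.17. The 4 mice did not share a direction. In mouse 1, 23 genes were higher and 14 lower in the metastasis, with a median difference of 0.33. In mice 2, 3 and 4, 28, 35 and 27 of the 37 were lower, with medians of -0.68, -1.55 and -0.75. Over all genes the medians in the 4 mice were -0.01, 0.01, 0.08 and 0.17. Higher in mouse 1 and lower in each of the other mice was the pattern of 11 genes, or 29.7%, against 4.4% of all genes.

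The metastasis arrays kept the same ends for most of the list. Metastasis array 1 was the highest of the 4 metastasis arrays for 32 of the 37 genes (23.7% of all genes) and array 3 the lowest for 31 (18.5% of all genes), and both held for 27 (8.3% of all genes). On array 1, 21 genes lay above all primary arrays (34.7% of all genes) and 5 below them (36.1%). On array 3, 35 of the 37 lay below all primary arrays (35% of all genes), as did 28 on array 2 (31.5%) and 25 on array 4 (34.1%). Among genes at or above the array median these shares were higher, 46.4% on array 3, 36.8% on array 2 and 47.2% on array 4. Above all primary arrays lay 2 genes on array 2 (35.6% of all genes), 1 on array 3 (44.2%) and 7 on array 4 (48.7%). Groups without overlap were found for 5 genes that were lower on every metastasis array (14.2% of all genes) and for 1, Incenp, that was higher (15.2%).

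**Figure D3:**
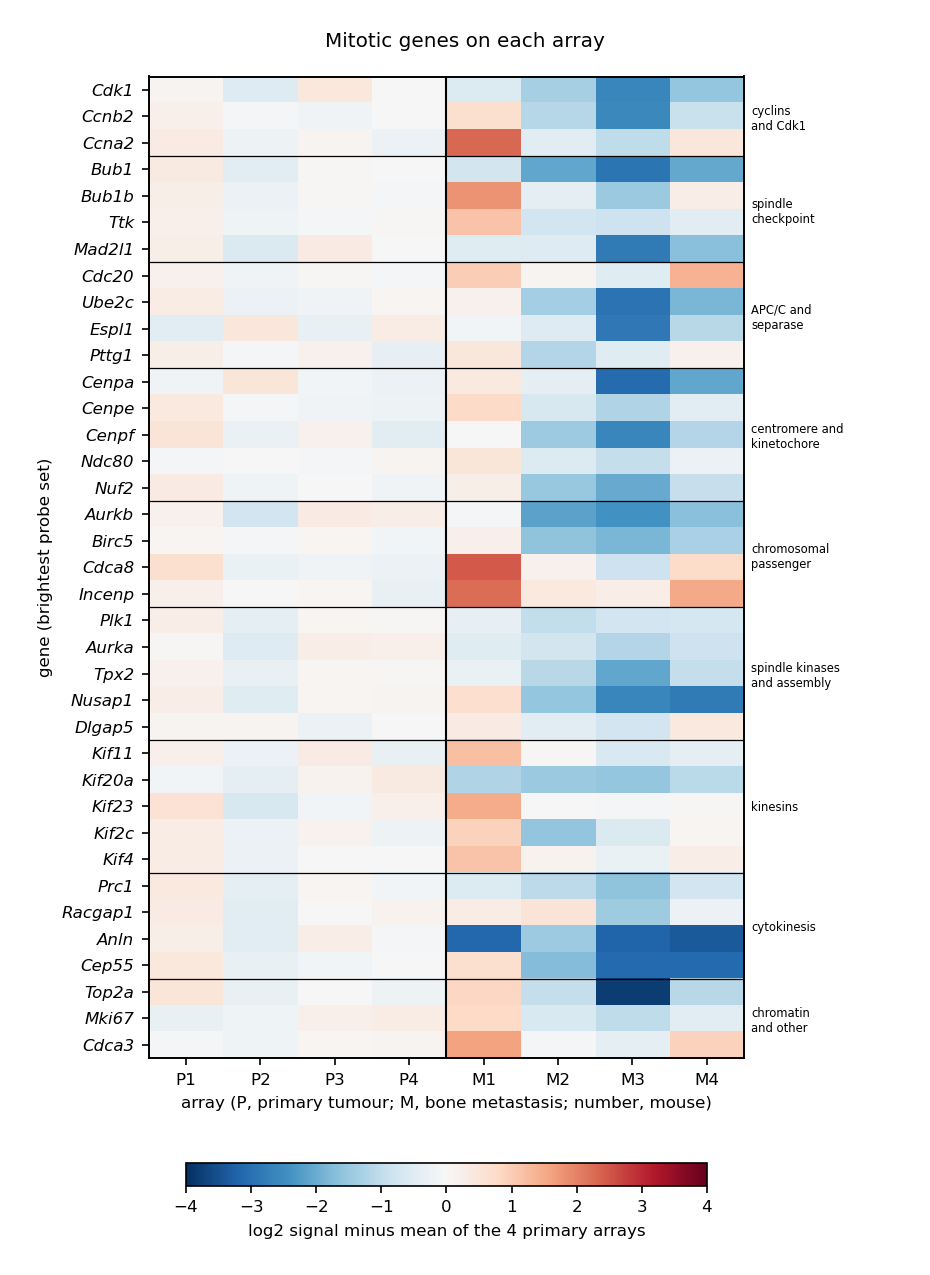
Log2 signal of each mitotic gene on each array, minus the mean of its 4 primary arrays, for primary tumours (P) and bone metastases (M) of mice 1 to 4, ordered by the role of the gene. Metastasis array 1 is red for many genes that are blue on arrays 2 and 3, and Anln is blue on all 4 metastasis arrays.

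Among the cyclins and their kinase, 1 of 3 measured genes fell. Cdk1, the kinase that drives entry into mitosis, read 8.89, 8.28, 9.21 and 8.78 in primary tumours 1 to 4 and 8.23, 7.45, 6.17 and 7.24 in metastases 1 to 4. All 4 metastases lay below all primary tumours, and the highest metastasis, that of mouse 1, was just under the lowest primary tumour. The log2 fold was -1.52, a 2.86-fold fall (SE 0.41, n = 4 per group, limma adjusted p = 0.0297), and it missed the threshold without primary array 1, 3 or 4 or metastasis array 4 (largest adjusted p 0.0868). Ccnb2, a B-type cyclin, read 8.30, 8.04, 7.98 and 8.10 against 8.74, 6.95, 5.54 and 7.23. Here the metastasis of mouse 1 was above all primary tumours and the other 3 were below them, so that the fold of -0.99 (SE 0.56) did not pass with all arrays (limma adjusted p = 0.239) and was -1.53 (SE 0.38) without array 1 (0.0247) but -0.46 (SE 0.41, 0.471) without array 3. Ccna2, the cyclin of S phase and early mitosis, read 8.16, 7.65, 7.97 and 7.60 against 10.14, 7.42, 6.84 and 8.29. Its metastasis values lay on both sides of the primary ones, with a fold of 0.33 (SE 0.62, limma adjusted p = 0.725) that turned to -0.33 (SE 0.33) without array 1 and was 0.77 (SE 0.58) without array 3.

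Of 4 spindle checkpoint genes, 1 fell. Bub1, a kinase that gathers checkpoint proteins at unattached kinetochores, read 7.51, 6.72, 7.20 and 7.18 in primary tumours and 6.43, 5.07, 4.23 and 5.11 in metastases. The groups did not overlap, and metastasis 1 was again the highest of its group. Its log2 fold of -1.94 (SE 0.42) is a 3.84-fold fall (n = 4 per group, limma adjusted p = 0.0132), and it stayed past the threshold when any single array was left out. The metastasis mean of 5.21 lies near the median signal of the arrays, 5.20, so the size of the fold is less sure than its direction. Mad2l1, which encodes the checkpoint inhibitor Mad2, read 8.91, 8.09, 8.99 and 8.70 against 8.19, 8.14, 5.83 and 6.99. Only metastases 3 and 4 were below the primary range (fold -1.38, SE 0.51, limma adjusted p = 0.0864; without array 1 -1.69, SE 0.51, 0.0452; without array 3 -0.90, SE 0.36, 0.131). The kinase gene Ttk, which starts checkpoint signalling, had a fold of -0.23 (SE 0.41), of -0.68 (SE 0.16, limma adjusted p = 0.0224) without array 1 and of -0.026 (SE 0.43, 0.975) without array 3. For Bub1b, which encodes the checkpoint protein BubR1, the fold was 0.05 (SE 0.59) on its brightest probe set, 1447363_s_at. On 1416961_at, also above the array median, it was -1.17 (SE 0.55, limma adjusted p = 0.169), with metastases 2 to 4 below every primary tumour. The adjusted p on that probe set was 0.00391 without array 1 and 0.345 without array 3.

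None of the 4 genes of the anaphase-promoting complex pathway passed with limma (0 lower and 0 higher; 1 lower and 0 higher at an unadjusted p under 0.05). Ube2c, the ubiquitin-conjugating enzyme of the complex, read 7.78, 7.25, 7.35 and 7.58 in primary tumours and 7.66, 6.11, 4.53 and 5.65 in metastases. The metastasis of mouse 1 lay within the primary range and the other 3 below it. Its fold was -1.50 (SE 0.56, limma adjusted p = 0.0902) with all arrays, -2.06 (SE 0.36, 0.00738) without array 1 and -1.02 (SE 0.45, 0.168) without array 3. Espl1, the protease separase that cuts cohesin, read 6.91, 7.80, 7.06 and 7.64 against 7.24, 6.84, 4.48 and 6.25, with only metastasis 1 inside the primary range (fold -1.15, SE 0.55, and -0.58, SE 0.31, without array 3). Cdc20, an activator of the complex, and Pttg1, the separase inhibitor securin, had folds of 0.49 (SE 0.38) and -0.26 (SE 0.34) on their brightest probe sets.

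The 5 centromere and kinetochore genes all had folds below 0, from -1.32 to -0.31, and none passed with all arrays by limma (0 lower and 0 higher; 2 lower and 0 higher at an unadjusted p under 0.05). Without array 1, Cenpa, Cenpe, Cenpf and Nuf2 were called lower. Cenpa, the histone H3 variant that marks centromeres, read 8.80, 9.44, 8.86 and 8.73 in primary tumours and 9.35, 8.58, 5.87 and 6.87 in metastases. It was thus near the primary level in metastases 1 and 2 and far below it in 3 and 4, and its fold was -1.29 (SE 0.68) with all arrays and -1.85 (SE 0.57, limma adjusted p = 0.0488) without array 1. Without array 3 it was -0.69 (SE 0.54, 0.422), and with the mean of its probe sets -0.071. Cenpf, a large kinetochore protein, changed from -1.32 (SE 0.49) to -1.75 (SE 0.38, 0.0157) without array 1 and to -0.88 (SE 0.38, 0.162) without array 3. Nuf2, a subunit of the complex that holds microtubules, went from -1.05 (SE 0.43) to -1.48 (SE 0.27, 0.00901) without array 1 and to -0.73 (SE 0.39, 0.243) without array 3. The metastasis mean of Nuf2, 4.63, lies under the median signal of the arrays, 5.20, so the size of its fold is less sure. Ndc80, the partner of Nuf2, was at -0.31 (SE 0.28), and Cenpe, a kinetochore motor, at -0.39 (SE 0.38), which became -0.76 (SE 0.23, 0.0455) without array 1 and -0.11 (SE 0.35, 0.844) without array 3.

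The chromosomal passenger complex, which corrects faulty attachments and later directs cytokinesis, was split on the brightest probe sets. Its enzyme Aurkb read 7.10, 6.16, 7.26 and 7.20 in primary tumours and 6.85, 4.79, 4.50 and 5.26 in metastases, and its subunit Birc5 (survivin) read 7.43, 7.31, 7.42 and 7.25 against 7.55, 5.76, 5.53 and 6.04. In both, metastases 2, 3 and 4 were below every primary tumour and metastasis 1 was not. The scaffold Incenp went the other way on its brightest probe set, 1439436_x_at, with 9.77, 9.59, 9.64 and 9.27 in primary tumours and 11.81, 9.96, 9.82 and 11.10 in metastases. It was higher in all 4 mice without overlap, yet the fold of 1.11 (SE 0.42) did not pass (limma adjusted p = 0.0961). With arrays scaled to their 75th percentile it was 1.31 and passed, the 1 mitotic gene called higher, where 13.5% of all genes were. The other probe sets of Incenp did not all share this direction. Of those above the array median, 1423092_at had a fold of -0.64 (SE 0.50, limma adjusted p = 0.383) and was lower in mice 2 to 4. The other, 1439252_at, rose and is given below. For Aurkb the fold was -1.58 (SE 0.50, 0.0541), -2.08 (SE 0.31, 0.00466) without array 1 and -1.30 (SE 0.51, 0.129) without array 3. Birc5 was at -1.13 (SE 0.40, 0.0753), at -1.58 (SE 0.16, 0.00151) without array 1 and at -0.90 (SE 0.40, 0.172) without array 3. Cdca8 (borealin), another subunit, had a fold of 0.62 (SE 0.61). With all arrays, limma therefore called 0 of the 4 genes in either direction, and 2 were lower and 1 higher at an unadjusted p under 0.05.

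Of 5 spindle kinases and assembly factors, 2 fell, both by less than 2-fold. Aurka, the kinase that matures centrosomes, read 7.66, 7.10, 7.88 and 7.80 in primary tumours and 7.13, 6.88, 6.42 and 6.80 in metastases. Plk1, a kinase that acts from mitotic entry to cytokinesis, read 6.54, 5.90, 6.34 and 6.32 against 5.95, 5.29, 5.51 and 5.56. In both genes every mouse had the lower value in its metastasis, and only metastasis 1 reached the lowest primary tumour, that of mouse 2. Their log2 folds were -0.80 (SE 0.22, limma adjusted p = 0.0333) and -0.70 (SE 0.20, 0.0375). The call of Aurka was lost without primary array 1, 3 or 4 or metastasis array 3 or 4, and that of Plk1 also without metastasis array 2 (largest adjusted p 0.101 and 0.102). Tpx2, which activates Aurka on the spindle, had a fold of -1.10 (SE 0.35, 0.0524). It passed without array 1 (-1.38, SE 0.29, 0.0134) but not without array 3 (-0.77, SE 0.24, 0.0676). Nusap1, which bundles spindle microtubules, read 7.33, 6.57, 7.12 and 7.16 against 7.73, 5.51, 4.43 and 4.23. Its metastases ran from above the primary range to far below it. The fold of Nusap1 was -1.57 (SE 0.69) with all arrays, -2.32 (SE 0.34, 0.00391) without array 1 and -1.22 (SE 0.73, 0.295) without array 3. Dlgap5, which stabilises kinetochore fibres, was at -0.13 (SE 0.27).

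Kinesins, the motor proteins of the spindle, had 1 of 5 genes that fell, folds from -1.33 to 0.36 and a median fold of 0.07. Kif20a, which carries the passenger complex to the middle of the spindle, read 5.09, 4.83, 5.34 and 5.55 in primary tumours and 3.99, 3.70, 3.64 and 4.14 in metastases. Metastasis 1 did not stand above the other metastases here, and the groups did not overlap. Its log2 fold of -1.33 (SE 0.20, limma adjusted p = 0.00304) passed when any single array was left out, but both groups lie around or under the median signal of the arrays, so its size too is less sure. Kif11, which pushes spindle poles apart, had a fold of 0.07 (SE 0.38). Kif4, a chromosome-bound motor, was at 0.32 (SE 0.29) and Kif2c, which shortens microtubules at centromeres, at -0.30 (SE 0.47). Kif23, the motor of the central spindle, read 9.31, 8.09, 8.61 and 8.93 against 10.20, 8.72, 8.66 and 8.77. Only metastasis 1 left the primary range, and the fold of 0.36 (SE 0.40) was -0.02 (SE 0.28) without it.

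Cytokinesis genes held the largest fall of the 37. Anln, which encodes anillin, the scaffold of the contractile ring, read 9.46, 8.77, 9.49 and 9.15 in primary tumours and 6.07, 7.76, 6.01 and 5.87 in metastases. Here metastasis 2 was the highest of its group and metastasis 1 was as low as 3 and 4, unlike the order seen in most of the list. The log2 fold was -2.79 (SE 0.41), a 6.92-fold fall without overlap (n = 4 per group, limma adjusted p = 0.00291, at most 0.0135 with any single array left out). Prc1, which bundles the microtubules of the central spindle, read 8.85, 8.13, 8.55 and 8.36 against 7.94, 7.41, 6.88 and 7.72. All its metastases were below all primary tumours, with a fold of -0.99 (SE 0.26, 0.0276) that missed the threshold without primary array 1, 3 or 4 or metastasis array 3 (largest adjusted p 0.0776). Cep55, which recruits the abscission machinery to the midbody, read 7.36, 6.63, 6.83 and 6.93 against 7.58, 5.22, 3.82 and 3.82. Metastasis 1 was above every primary tumour and the other 3 were below. The fold of Cep55 was thus -1.83 (SE 0.76, 0.121) with all arrays, -2.65 (SE 0.37, 0.0035) without array 1 and -1.40 (SE 0.78, 0.263) without array 3. Its metastasis mean of 5.11 lies under the median signal of the arrays, 5.20, so the size of this fold is less sure. Racgap1, the partner of Kif23, was at -0.21 (SE 0.40).

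The remaining 3 genes include Mki67 and Top2a, both widely used as markers of dividing cells. Of the 3, 0 passed with limma in either direction, also at an unadjusted p under 0.05. Mki67, which coats mitotic chromosomes and encodes the antigen Ki-67, read 10.39, 10.52, 10.88 and 10.98 in primary tumours and 11.48, 10.09, 9.67 and 10.25 in metastases. Top2a, the topoisomerase that untangles sister chromatids, read 10.63, 9.84, 10.13 and 9.92 against 10.97, 9.16, 6.33 and 9.01. In both genes metastasis 1 was the highest of all 8 arrays and metastases 2 to 4 were below every primary tumour. Their folds were -0.32 (SE 0.36) and -1.26 (SE 0.82) with all arrays, and -0.69 (SE 0.22, limma adjusted p = 0.0508) and -1.96 (SE 0.66, 0.0618) without array 1. Without array 3 they were -0.086 (SE 0.35, 0.887) and -0.41 (SE 0.48, 0.587). Cdca3, a trigger of mitotic entry, had a fold of 0.53 (SE 0.40).

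Probe sets of the same gene often disagreed. Of the 80 probe sets, fitted as part of all 34945 that had 1 symbol, 11 were called lower and 4 higher by limma, against 11.9% and 8.72% of all probe sets. Those called lower belonged to 10 genes and those called higher to 4 other genes, and 0 genes had calls both ways. Without metastasis array 1 the counts were 29 lower and 2 higher (13.9% and 10.2% of all probe sets), without metastasis array 3 they were 7 and 2 (8.58% and 6.96%) and without metastasis array 4 they were 7 and 1 (10.6% and 8.49%). Without metastasis array 2 there were 8 lower and 5 higher (14% and 10%). Without primary array 1, 3 or 4 the lower count was 3 each (8.88%, 7.02% and 6.54%), with 2, 1 and 1 higher (5.82%, 4.54% and 4.34%), and without primary array 2 there were 9 lower and 1 higher (8.08% and 5.08%). Quantile normalization gave 6 lower and 1 higher (10.6% and 8.4%), and without metastasis arrays 1 and 3 there were 19 and 2 (8.06% and 6.69%). Of 25 genes with several probe sets, 16 had folds on both sides of 0; counting only probe sets at or above the array median, this held for 9 of 14. Probe sets ending in _s_at or _x_at can share probes with other transcripts, by the naming rules of the array maker.

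Prc1 was called on both of its probe sets, with folds of -0.99 and -1.39 (SE 0.33, limma adjusted p = 0.0192). In the fit of all probe sets both calls were lost without primary array 1, 3 or 4. Cdc20 had a fold of 0.49 on 1439377_x_at, but 1416664_at read 8.79, 8.60, 9.22 and 8.75 in primary tumours and 8.54, 7.32, 6.42 and 7.15 in metastases. On that probe set the metastases were below every primary tumour and the fold was -1.48 (SE 0.40, limma adjusted p = 0.0326, lost without any array but metastasis 1). Pttg1 was called lower on 1424105_a_at (-0.79, SE 0.18, 0.0173, lost without primary array 1, 3 or 4) and not on its brightest probe set. Kif2c was called lower on 1449060_at, which is under the array median (-0.48, SE 0.14, 0.0453, lost without any array but metastasis 4). Cenpa, at -1.29 on its brightest probe set, rose on 1444416_at, which read 5.85, 5.47, 5.88 and 5.69 against 6.76, 6.31, 6.62 and 6.68 (0.87, SE 0.16, 0.00689, kept when any single array was left out). Those 2 probe sets of Cenpa also differed in the order of the metastases, since array 3 was the lowest on one and not on the other. Top2a rose on the dim probe set 1442454_at (1.15, SE 0.31, 0.0316), and Kif11 and Incenp rose on 1452315_at (1.22, SE 0.37, 0.0494) and 1439252_at (1.18, SE 0.36, 0.0487). With the most variable probe set of each gene, Kif11 was thus the 1 mitotic gene called higher, where 11% of all genes were. Of these 3 rises, those of Kif11 and Incenp missed the threshold without any array but metastasis 2, and that of Top2a without primary array 2, 3 or 4 or metastasis array 1 or 4. The positions of the probe sets in their transcripts were not used here.

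**Figure D4:**
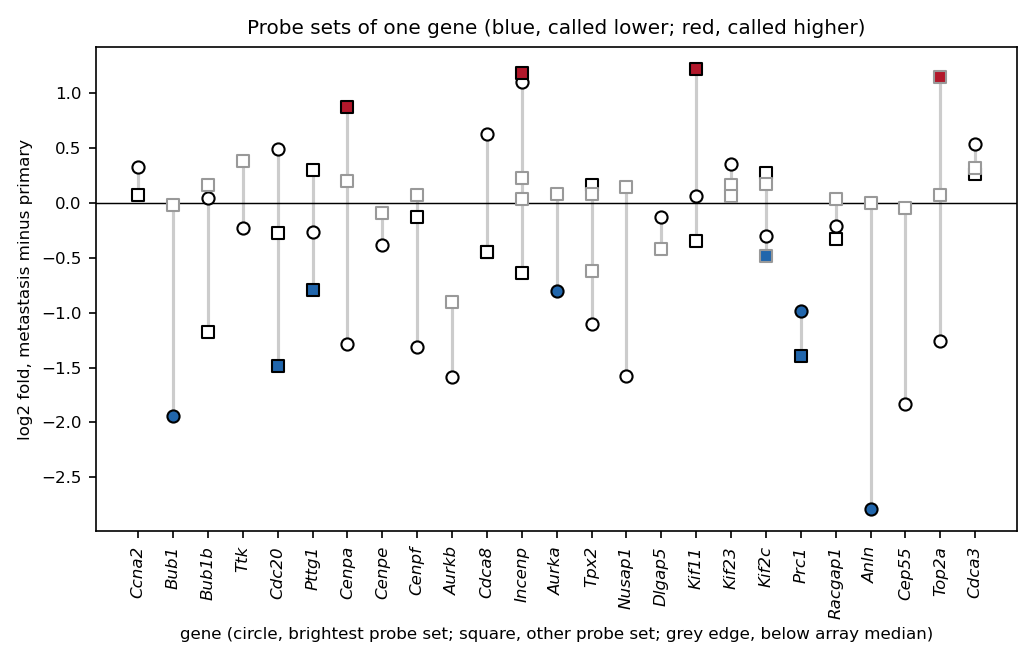
Log2 fold, metastasis minus primary, of every probe set of the 25 genes with more than 1; circles are the brightest probe set of a gene, squares the others, blue and red mark calls lower and higher, and grey edges mark probe sets below the array median. Cenpa, Cdc20, Kif11 and Top2a have probe sets on both sides of 0 with a call on one side.

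Further genes of cell division were read from a wider list. Of 83 other mitosis genes measured, 8 were called lower and 1 higher, where 12.1% and 9.72% of all genes were, with a median of -0.13. Without array 1 there were 27 lower and 3 higher, where 14.8% and 11.6% of all genes were. Ckap5, which promotes microtubule growth, changed by -1.10 (SE 0.19, limma adjusted p = 0.00576), Iqgap3 by -1.78 (SE 0.37, 0.0117) and the condensin subunit Smc2 by -1.87 (SE 0.45, 0.0195). Kif22, a chromosome-bound kinesin, was the one that rose, by 1.60 (SE 0.32, 0.00926), from 9.37, 8.70, 9.12 and 8.71 to 11.20, 9.72, 10.57 and 10.80. Of these 4 genes Smc2 lost its call without primary array 1, 3 or 4 or metastasis array 3 (largest adjusted p 0.0565).

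DNA replication genes, which act before mitosis, were also highest on array 1 and lowest on array 3 by their medians. Of 40 measured, 2 were lower and 2 higher, where 12.1% and 9.72% of all genes were, with a median of 0.07. Without array 1 there were 12 lower and 2 higher, where 14.8% and 11.6% of all genes were, with a median of -0.42. On metastasis array 1, 38 of the 40 were the highest of the metastasis arrays and the median lay 0.97 above the primary mean, against 0.45 for the mitotic genes. On arrays 2, 3 and 4 the medians were -0.15, -0.80 and -0.18, against -0.76, -1.49 and -0.76 for the mitotic genes. Pcna, the sliding clamp of replication, read 11.70, 11.99, 11.72 and 11.96 against 11.21, 10.75, 8.51 and 8.05 (fold -2.22, SE 0.67, limma adjusted p = 0.0468). Its call was lost without any 1 of the primary arrays and without metastasis array 3 or 4 (largest adjusted p 0.114). Tk1, thymidine kinase, fell by 1.28 (SE 0.24, 0.00751). Pold1, a DNA polymerase subunit, rose by 2.48 (SE 0.57, 0.0171, but 0.0545 without primary array 3) and Orc1, of the origin recognition complex, by 0.92 (SE 0.20, 0.0137).

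Inhibitors of the cell cycle were called more often lower than higher. Of 16 measured, 5 fell and 1 rose, where 12.1% and 9.72% of all genes did, with a median of -0.66. Rbl2, the pocket protein p130 of the DREAM complex, changed by -1.43 (SE 0.19, limma adjusted p = 0.00208), Wee1, the kinase that holds Cdk1 inactive, by -1.27 (SE 0.20, 0.00396) and Btg2 by -1.34 (SE 0.23, 0.00492). Cdkn2d, an inhibitor of the kinases of G1, rose by 1.43 (SE 0.32, 0.0144). All 4 kept their direction in all 4 mice.

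**Figure D5:**
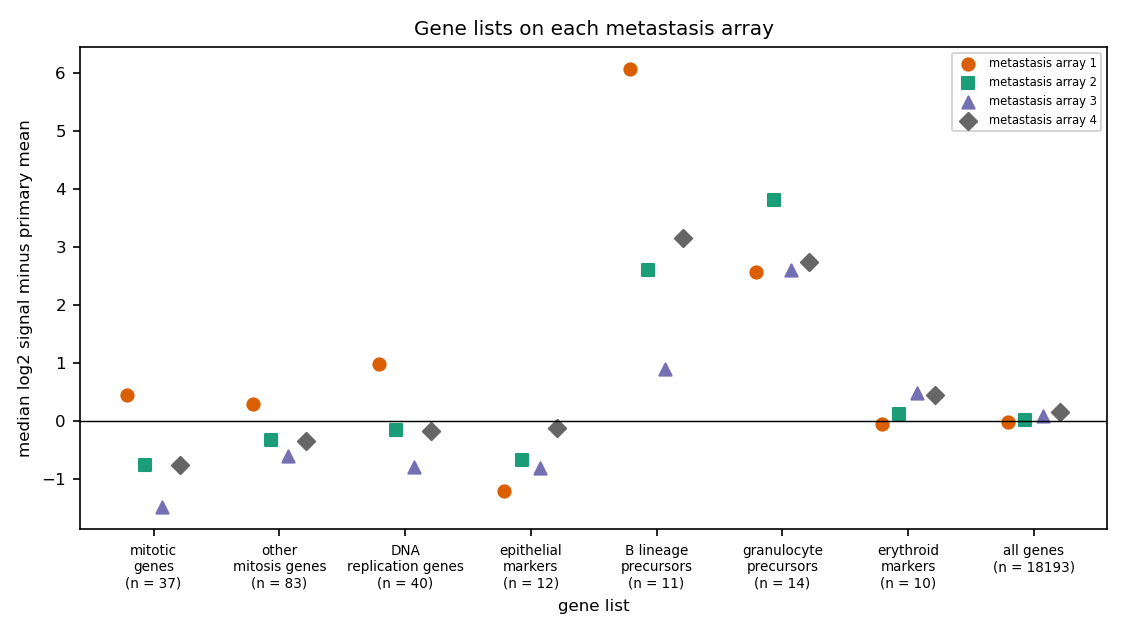
Median log2 signal of each gene list on metastasis arrays 1 to 4, minus the mean of the 4 primary arrays, with the number of genes in each list. Array 1 is highest and array 3 lowest for the mitotic, replication and B lineage precursor genes, while array 1 is lowest for the epithelial markers.

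Markers of other cells did not share 1 order over the metastasis arrays, and their part in the results was not tested. B lineage precursor markers had 5 of 11 genes higher and 0 lower by limma (8 and 0 at an unadjusted p under 0.05), and their summed signal, on the log2 scale, was 9.40 to 10.04 in primary tumours and 15.48, 12.97, 11.45 and 13.38 in metastases 1 to 4. That is the order of the mitotic genes at both ends, with array 1 highest and array 3 lowest. All 11 of these markers were highest on array 1. Granulocyte precursor markers were higher in 10 of 14 cases and lower in 0 (12 and 0 unadjusted), with sums of 11.69 to 12.19 in primary tumours and 14.38, 15.71, 15.39 and 14.74 in metastases, so that array 1 was the lowest. Of 10 erythroid markers 0 were called by limma (2 higher and 0 lower unadjusted), and 6 were below the array median in each group. Their sums were 9.77 to 10.24 and 11.12, 9.52, 9.39 and 9.93. The median difference of these markers from the primary mean was instead lowest on array 1 (-0.06) and highest on array 3 (0.48). Of 12 epithelial markers 2 were called lower and 0 higher (6 and 0 unadjusted), with sums of 13.80 to 13.89 in primary tumours and 10.20, 13.08, 11.19 and 13.72 in metastases. Macrophage markers fell in 10 of 12 cases. Their sums were 15.58 to 16.37 in primary tumours and 13.26, 14.94, 14.46 and 14.56 in metastases, so that array 1 was the lowest. Nerve and glia markers were higher in 9 of 11. Their sums were 9.54 to 9.63 against 13.88, 12.96, 14.49 and 13.16, so that array 3 was the highest. Among the named markers Ebf1 rose by 6.98 (SE 0.35), Ngp by 6.33 (SE 0.39), S100a9 by 5.33 (SE 0.38), Stmn3 by 6.41 (SE 0.41) and Nefl by 8.05 (SE 0.31), while Krt19 changed by -3.36 (SE 0.64), Cldn4 by -1.55 (SE 0.34), Mrc1 by -4.21 (SE 0.70) and Cd68 by -3.46 (SE 0.60).

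The control probe sets differed between the groups as well. The actin signal dropped from its 3' to its 5' probe set by 1.49 ± 0.44 (SD, n = 4) on primary arrays and by 4.85, 4.55, 5.72 and 6.18 on metastasis arrays 1 to 4 (exact permutation p = 0.0286, two-sided, the smallest p that 4 against 4 allows; adjusted p = 0.0286 over 2 controls). Gapdh dropped by 2.15 ± 0.48 (SD, n = 4) and by 4.66, 4.62, 6.08 and 5.51 (exact permutation p = 0.0286, adjusted p = 0.0286). Metastasis arrays 3 and 4 had the larger drops in both controls. The part of these drops in the folds was not tested.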

How the data were processed

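Per the labels, RNA was column-purified, treated with DNase, amplified in successive rounds and labelled with biotin. The deposited values are log2 signals, 1 per probe set and array, made by the authors with RMA per the submitters' processing notes; the sources used here give no version and do not say which arrays were normalized together. All 8 columns were mapped by sample name. Of 45101 probe sets, 34945 had 1 gene symbol, 932 several and 9160 none, and 64 were controls. The probe set with the highest mean stood for a gene.

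Groups were compared, as metastasis minus primary, by limma (3.58.1, R 4.3.3; lmFit, eBayes, two-sided, no block, no filter), with Benjamini-Hochberg adjustment over all genes or all probe sets and a threshold of 0.05. The method was tested on simulated data. Tables and plots used Python 3.11.15, numpy 2.4.6, pandas 2.3.3, scipy 1.17.1 and matplotlib 3.10.9. The mouse numbers pair the samples by the series' design; deviations of same-mouse arrays from their group means correlated at -0.11 to 0.17 over genes. All members were named; values in every array were given for up to 3 called genes per role and, chosen after their values were seen, for others. From further lists the 3 most significant genes in each direction were named, and from marker lists the 2 largest called folds. The genes and lists were chosen with earlier results of these data known. Alternatives were other scalings, a dim filter, array weights, the block, other probe sets and left-out arrays. Arrays have no read depth, and their number limits the precision.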

Additional observations from a re-analysis of the deposited data

Results flagged for a closer look

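Of 74 groups of 4 arrays (37 genes, brightest probe set), 4 held an array whose gap to its nearest neighbour took up more of the group's range than Dixon's 95% critical value; chance gives about 1 in 20. Anln on metastasis array 2 lay at 7.76 against 5.87 to 6.07 on the other metastasis arrays, a gap of 0.892 of the range. Kif23 on metastasis array 1 lay at 10.20 against 8.66 to 8.77 (0.934). Cdca8 on primary array 1 lay at 9.58 against 8.66 to 8.80 (0.851), and Aurkb on primary array 2 lay at 6.16 against 7.10 to 7.26 (0.855). The 4 arrays differ, so no single array gathered these values.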

How the results depend on the processing

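The count of mitotic genes called lower, 7, was 4 after quantile normalization, 16 without metastasis replicates 1 and 3 together (added after seeing the data) and 2 to 20 with 1 array or 1 mouse left out. Quantile normalization kept Anln, Bub1, Kif20a and Plk1. The count called higher, 0, became 1 with scaling to the 75th percentile (Incenp, 1.31) and 1 with the most variable probe set (Kif11, 1.22). Among probe sets, 11 lower and 4 higher became 6 and 1 after quantile normalization, 19 and 2 without metastasis replicates 1 and 3, and ranged from 2 to 29 and from 1 to 5 with arrays or mice left out. Over all genes, 1768 calls higher and 2207 lower became 2465 and 1961 with scaling to the 75th percentile. With arrays or mice left out the calls ranged from 697 to 2119 higher and 708 to 2719 lower, and over all probe sets from 1034 to 3581 and 1285 to 4882. With the mouse as a replicate block 6 mitotic genes were called lower, of which 5 were among the 7, and 0 higher; among probe sets it was 8 and 3.

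All folds that turned were uncalled with all arrays, and of the turned values only that of Cdc20 passed: Bub1b (-0.0091 with array weights, -1.17 with the most variable probe set, -0.32 with the mean of probe sets, -0.052 without metastasis replicates 1 and 3), Ttk (0.079, mean of probe sets), Cdc20 (-1.48, most variable, limma adjusted p = 0.0271; -0.42, mean), Cdca8 (-0.092, mean), Dlgap5 (0.072, 75th percentile), Kif11 (-0.079, quantile; -0.16 without metastasis replicates 1 and 3) and Racgap1 (0.15 without both). With arrays or mice left out, Ccna2 ranged from -0.33 to 0.81, Bub1b from -0.53 to 0.58, Pttg1 from -0.51 to 0.045, Dlgap5 from -0.30 to 0.078, Kif11 from -0.32 to 0.40, Kif23 from -0.017 to 0.55, Kif2c from -0.70 to 0.13 and Racgap1 from -0.60 to 0.19. The cause of these turns was not tested. The actin drop differed by 3.84 between groups, and by 3.41 to 4.21 with arrays left out; the Gapdh drop by 3.07, and by 2.58 to 3.40. With 4 against 3 arrays the exact test cannot go below 0.0571.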
